A study of Mus musculus with 15 samples.

Results

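The genes of the respiratory chain and ATP synthase were followed across mouse mammary tumors and glands. Members were found by symbol: the nuclear families Nduf (a, b, c, s and v subunits), Sdha to Sdhd, Uqcr, Cox5 to Cox8 with a letter, and Atp5, and the mRNAs of the mitochondrial genome (mt-Nd, mt-Co, mt-Cytb, mt-Atp). Of 51826 genes, 112 matched, 12 pseudogenes named -ps were left out, and 100 members remained, 87 nuclear and 13 mitochondrial. The nuclear members hold 35 subunits of complex I, 4 of complex II, 8 of complex III, 18 of complex IV and 17 of complex V, as well as Atp5s, which is no subunit, and 4 annotated pseudogenes (Cox6c2, Ndufa11b, Ndufb4c and Ndufs6b). The mitochondrial members hold 7 subunits of complex I, 1 of complex III, 3 of complex IV and 2 of complex V. In all, 93 members reached 1 TPM (a level per transcript length, scaled to one total in every library) in every library, and 3 (Ndufa11b, Cox7b2 and Cox8c) stayed below 1 TPM in all 15 libraries.

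Bulk RNA-seq covered 13 mice, 1 tumor or gland each. The Trim24COE tumors came from mice that carry a FLAG-tagged Trim24 transgene behind a floxed stop, which MMTV-Cre removes in mammary epithelium. They comprise 3 metaplastic carcinosarcomas (64, 567 and 897) and 3 carcinomas (89, 273_5 and 3956), and pathologists differed on 89, 567 and 3956. For 89 and 3956 a pathologist gave carcinosarcoma. The study's list of tumors also gives a call based on RNA-seq for 64, 567, 897, 89 and 273_5, with the same classes, and none for 3956. Whether the labels rest on that call, and so on the data compared here, is not stated. The controls are disease-free mammary glands of 4 MMTV-Cre mice without the transgene (133, 392, 417_3 and 517_3), age-matched per the study. The 3 non-TRIM24 tumors (219, FVB001 and FVB002) arose spontaneously, and their genotype is labelled unknown. All mice are labelled FVB, whereas the series text gives FVB/129. The mice were virgin females, and the Trim24COE tumor mice were of unequal ages in the study's list of tumors; ages of single control and non-TRIM24 mice were not given in the sources used here. Batch here means which of the 2 deposited sets of values holds a library. Batch 2 holds every non-TRIM24 tumor and a repeat library each of gland 133 and carcinoma 3956, and all else is batch 1. Each mouse counts once below unless its repeat is named.

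The respiratory chain passes electrons from NADH (complex I) and succinate (complex II) through complexes III and IV to oxygen, and ATP synthase (complex V) uses the resulting proton gradient to make ATP. Most subunits are encoded in the nucleus and imported, while a small core of complexes I, III, IV and V is encoded in mitochondrial DNA; complex II has no mitochondrial subunit. Brown adipocytes and muscle are rich in mitochondria and use their own isoforms of several complex IV subunits, and the mammary gland is a mixture of epithelium, fat and stroma.

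Trim24 itself had 10.6 to 24.1 TPM in Trim24COE tumors, 14.5 to 22.4 TPM in control glands and 5.34 to 10.04 TPM in non-TRIM24 tumors. The ranges of the transgenic tumors and the glands overlapped. All 8 mammary epithelial markers reached 1 TPM in every gland, and their summed level was 1852 to 7328 TPM there, 358 to 1418 TPM in metaplastic carcinosarcomas and 5915 to 7835 TPM in carcinomas. The glands fell into pairs on adipocyte content: the 15 adipocyte markers summed to 43244 TPM in gland 133 and 50197 TPM in gland 392, against 2651 TPM in 417_3 and 2688 TPM in 517_3. The same sum was 221 to 2650 TPM in Trim24COE tumors, 483 TPM in tumor 219, 72189 TPM in FVB001 and 36346 TPM in FVB002. In such bulk tissue fewer cells of a type and less RNA per cell cannot be told apart, and since TPM hold no read counts, depth is unknown.

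Nuclear members were far apart between the control glands themselves. Their summed level was 38162 TPM in gland 133 and 33743 TPM in 392, but 16111 TPM in 417_3 and 18899 TPM in 517_3. Of the 84 nuclear members with at least 1 TPM in a gland, 76 (90.5%) were higher in both 133 and 392 than in both other glands, and 1 was lower. Over all 18899 genes the same order held for 27.5%, and the opposite order for 42.9%. Complex I showed it in 35 of 35 genes, complex II in 4 of 4, complex III in 7 of 8, complex IV in 14 of 16 and complex V in 14 of 17. The members outside this order were Uqcrc2, Cox6b2, Cox7a2l, Atp5a1, Atp5g1, Atp5g2, Atp5s and Ndufs6b. The glands highest in respiratory chain mRNA were thus those highest in adipocyte markers. Other markers split the same pairs. Skeletal muscle markers summed to 558 and 3053 TPM in 133 and 392, against 24.2 and 24.3 TPM in 417_3 and 517_3. Brown adipocyte markers summed to 310 and 43.9 TPM, against 13.8 and 9.74 TPM. Epithelial markers went the other way, with 2352 and 1852 TPM against 6881 and 7328 TPM. These contents cannot be told apart in 4 glands, and the part of adipocytes or of other cells in this difference was not tested.

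The Trim24COE tumors lay inside that span, and FVB001 lay above it. The nuclear sum was 33563 TPM in metaplastic carcinosarcoma 64, 24277 TPM in 567 and 23771 TPM in 897, and 25302, 27971 and 19510 TPM in carcinomas 89, 273_5 and 3956. Group means were 27203 ± 5513 TPM (SD, n = 3) for metaplastic carcinosarcomas, 24261 ± 4325 TPM (SD, n = 3) for carcinomas and 26728 ± 10862 TPM (SD, n = 4) for control glands. The non-TRIM24 tumors had 24387 TPM in 219, 45619 TPM in FVB001 and 35476 TPM in FVB002. Thus the Trim24COE groups differed from the glands by less than the spread between glands.

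**Figure D1:**
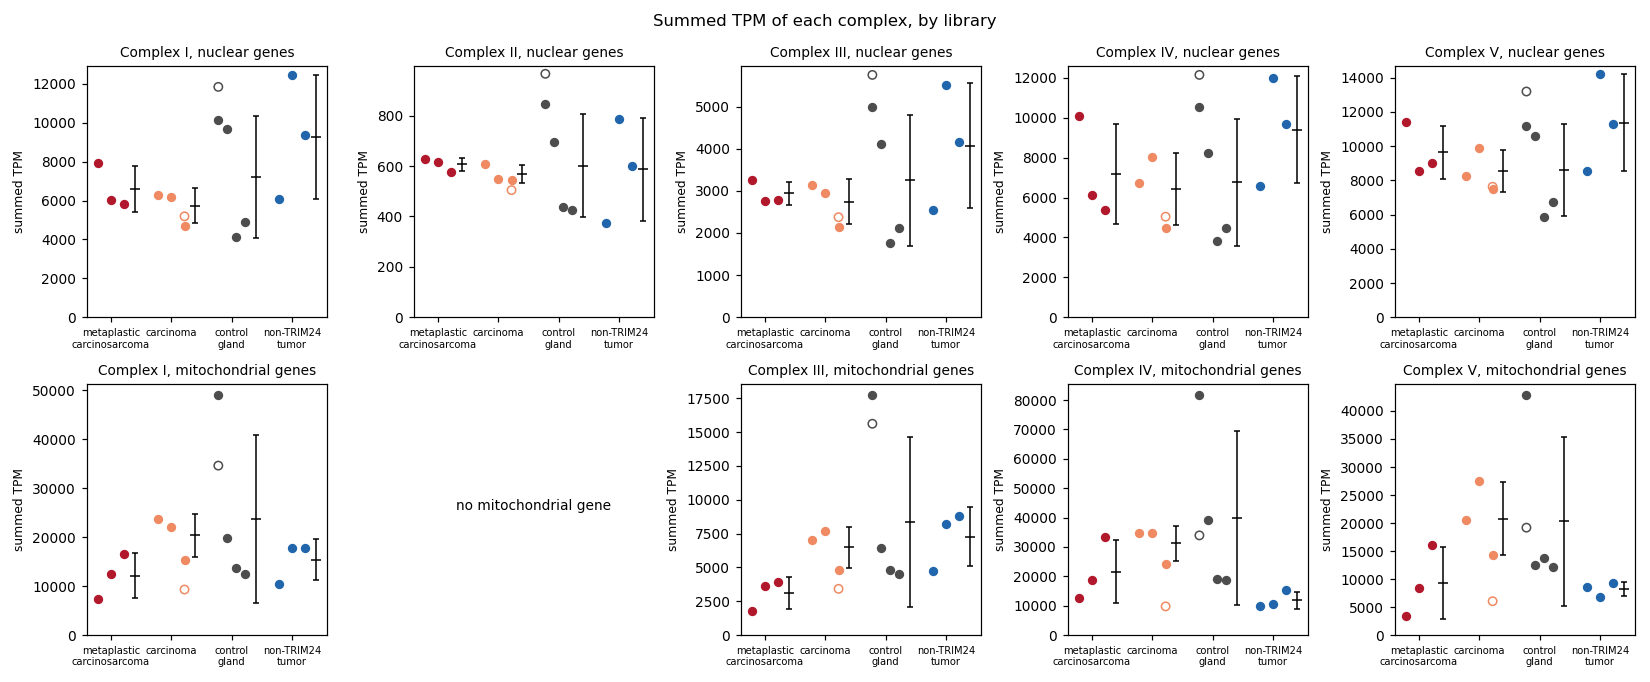
Summed TPM (y axes, linear from 0) of the nuclear members (top) and mitochondrial members (bottom) of each complex, by group. Filled points are first libraries, open points repeats of gland 133 and carcinoma 3956, and bars are the mean ± SD of first libraries; control glands form a high and a low pair for every nuclear complex, while metaplastic carcinosarcoma 64 is lowest of the Trim24COE tumors for each mitochondrial set.

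Between the glands, 9 of 13 mitochondrial members (69.2%) were higher in both 133 and 392 than in both other glands, and 0 were lower. Across the Trim24COE tumors, however, the mitochondrial mRNAs did not follow the nuclear ones. Their summed level was 25186 TPM in tumor 64, 43169 TPM in 567 and 70029 TPM in 897, against 85873, 91964 and 58763 TPM in carcinomas 89, 273_5 and 3956. Gland 133 had 191334 TPM, and the other glands had 77901 TPM (392), 51553 TPM (417_3) and 47736 TPM (517_3). Among the batch 1 libraries, tumor 64 was thus below only glands 133 and 392 in its nuclear sum and lowest in its mitochondrial sum. The ratio of the mitochondrial to the nuclear sum was 0.750 in tumor 64, 1.78 in 567 and 2.95 in 897, 3.39, 3.29 and 3.01 in the carcinomas, and 2.31 to 5.01 in the glands. The non-TRIM24 tumors, all from batch 2, had ratios of 0.953 to 1.44, but the repeats of 3956 and 133 in that batch also fell to 1.37 and 2.33. Near-identical gene copies on chromosome 1, described with the repeats, take part of the mitochondrial reads. With them added, the ratio was 1.82 to 2.89 in non-TRIM24 tumors, with a mean of 2.43 in place of 1.26, and 1.05 to 3.91 in metaplastic carcinosarcomas, with a mean of 2.50 in place of 1.82. It was then 4.18 to 4.71 in carcinomas and 3.21 to 7.07 in glands. The metaplastic carcinosarcomas lay below every carcinoma in either ratio, with 897 close to carcinoma 3956.

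Tests used limma on log2(TPM + 1) values, with p-values adjusted over all genes tested and a threshold of 0.05; fold changes are on that scale. In comparisons among Trim24COE tumors and glands separate animals stand behind every sample, so those p-values measure the spread between mice. Where non-TRIM24 tumors entered, the repeat libraries were used as well unless stated. Not every sample in those fits was thus a separate animal, and mouse was a block in them unless stated. For the 6 Trim24COE tumors against 4 control glands, 83 nuclear and all 13 mitochondrial members were tested. Of the nuclear members 1 rose (Atp5g1) and 1 fell (Sdha), 2 of 83 or 2.41%, where 17.1% of all genes were called. An unadjusted p under 0.05 was found for 8 of the 83 and for 4953 of all 15196 genes tested. The median log2 fold change of the nuclear members was -0.06, beside -0.04 over all genes. By complex the nuclear medians were -0.16 for complex I, 0.14 for complex II, -0.14 for complex III, 0.06 for complex IV and 0.10 for complex V. No mitochondrial member passed the threshold, none had an unadjusted p under 0.05, and 12 of 13 lay below 0 with a median of -0.47. In the same comparison 7 of 7 macrophage markers were called higher (median 2.40), with sums of 2131 to 6918 TPM in the tumors and 529 to 1304 TPM in the glands, and 2 of 6 fibroblast markers were; the part of these cells was not tested.

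The metaplastic carcinosarcomas and the carcinomas were also set against the same glands. In metaplastic carcinosarcomas 1 nuclear member rose (Atp5g1) and 3 fell (Sdha, Uqcrc2 and Atp5s), 4 of 83, where 23% of all genes were called. An unadjusted p under 0.05 was found for 7 of the 83 and for 5745 of all 15287 genes tested. The nuclear median in metaplastic carcinosarcomas was -0.02 and the median of all genes -0.12. In carcinomas 0 of 83 nuclear and 0 of 13 mitochondrial members were called by limma, where 3.5% of all genes were. An unadjusted p under 0.05 was found for 4 nuclear members (Atp5g1, Ndufs5, Ndufa7 and Cox6c2), no mitochondrial member and 3328 of all 15479 genes tested. The nuclear median in carcinomas was -0.09, the mitochondrial -0.07, and that of all genes 0.02. Both comparisons share the control glands, so their results are not independent.

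Which glands served as control turned the direction of the nuclear members. Against 417_3 and 517_3 alone, a choice made after seeing the data, the nuclear median for all Trim24COE tumors was 0.50, and against 133 and 392 alone it was -0.50. The members below 0 went from 47 of 83 with all glands to 12 and 78. Against 417_3 and 517_3, 8 members rose (Cox5a, Sdhb, Ndufa2, Ndufb8, Cox7b, Uqcrq, Ndufs8 and Usmg5) and none fell, where 16.2% of all genes were called. Against 133 and 392, 1 rose (Atp5g1), 11 nuclear and 3 mitochondrial members (mt-Co3, mt-Nd3 and mt-Nd6) fell, and 19.3% of all genes were called. A fit with the adipocyte marker level as a covariate gave a nuclear median of 0.54, with 3 members higher (Cox8b, Ndufs8 and Cox7a1), 0 lower and 5.89% of all genes called. The summed adipocyte markers did not overlap, with 221 to 2650 TPM in these tumors and 2651 to 50197 TPM in the glands. Covariate and group are thus hard to separate, and all fold changes and calls with the covariate rest on extrapolation.

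The same turn was seen in each tumor class. For metaplastic carcinosarcomas the nuclear median was 0.54 against 417_3 and 517_3, with 25 members higher, 3 lower (Sdha, Uqcrc2 and Atp5s) and 37.6% of all genes called. Against 133 and 392 it was -0.49, with 1 nuclear member higher, 17 lower, 3 mitochondrial members lower and 31.9% of all genes called; with the covariate it was 0.87, with 28 higher, 0 lower and 30.6% called. For carcinomas the nuclear median was 0.40 with 2 members higher (Cox5a and Ndufb8) and 7.77% of all genes called, -0.59 with 5 lower (Ndufa5, Ndufv3, Ndufs5, Ndufb10 and Cox6c2) and 7.81% called, and with the covariate 0.50 with 1 higher (Cox8b) and 3.81% called. Sdha, Uqcrc2 and Atp5s were called lower in metaplastic carcinosarcomas with all glands and against either pair, though not with the covariate. The mitochondrial medians turned as well in all Trim24COE tumors (0.32 and -1.13) and in carcinomas (0.58 and -0.74), but stayed below 0 in metaplastic carcinosarcomas (-0.21 and -1.66), although not with the covariate (0.37).

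**Figure D2:**
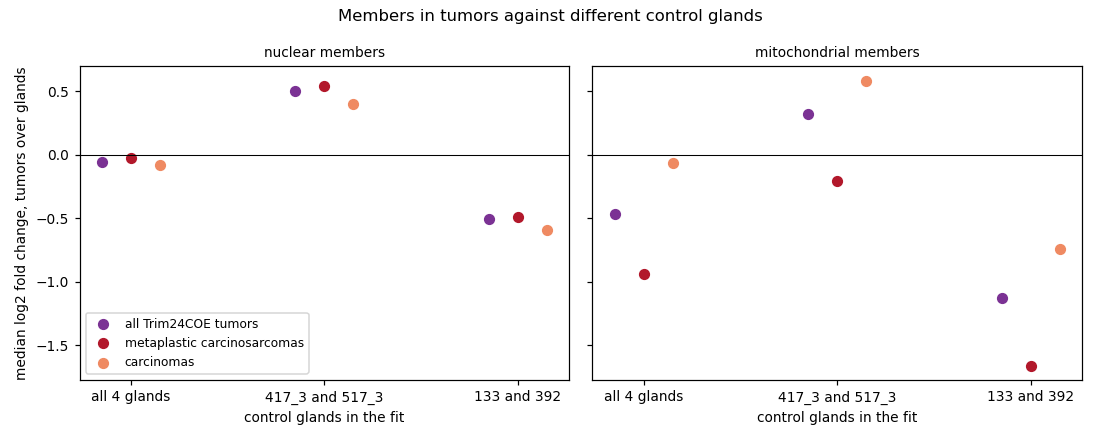
Median log2 fold change of the tested nuclear (left) and mitochondrial (right) members, tumors over glands, with all glands in the fit, with 417_3 and 517_3 only, and with 133 and 392 only. Nuclear medians lie between -0.09 and -0.02 with all glands, between 0.40 and 0.54 against 417_3 and 517_3, and between -0.59 and -0.49 against 133 and 392.

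In complex I, the NADH dehydrogenase, no subunit passed the threshold in any comparison with all mice, without the adipocyte covariate and, where non-TRIM24 tumors entered, with the batch term. Without that term Ndufa11 was called in non-TRIM24 tumors against glands (log2 fold change 0.93, limma adjusted p = 0.0469). With the covariate Ndufs8 was called in all Trim24COE tumors (log2 fold change 0.92, limma adjusted p = 0.0452), and Ndufa2 (2.12, limma adjusted p = 0.0108) and Ndufb8 (1.62, limma adjusted p = 0.0154) were among those called in metaplastic carcinosarcomas. Core subunits that carry electrons from NADH to ubiquinone had log2 fold changes between Trim24COE tumors and glands of -0.34 (SE 0.27) for Ndufv1, which holds the NADH-binding site, -0.16 (SE 0.28) for Ndufs1, -0.03 (SE 0.27) for Ndufs3, -0.06 (SE 0.29) for Ndufs7 and 0.13 (SE 0.34) for Ndufv2. None of these differences passed the threshold, and none had an unadjusted p under 0.05; with the covariate Ndufv2 was called in metaplastic carcinosarcomas (1.16, limma adjusted p = 0.0337). Ndufs8, an iron-sulfur core subunit, had 95.5 to 104 TPM in 5 Trim24COE tumors and 130 TPM in carcinoma 273_5, and 99.1, 87.7, 53.4 and 62.6 TPM in glands 133, 392, 417_3 and 517_3. Its log2 fold change was 0.51 (SE 0.21, limma adjusted p = 0.119), and the groups overlapped at gland 133. Nuclear complex I sums were 5836 to 7956 TPM in metaplastic carcinosarcomas, 4715 to 6310 TPM in carcinomas and 4104 to 10168 TPM in the glands.

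Between metaplastic carcinosarcomas and carcinomas, 0 of 83 nuclear members were called by limma, where 0.698% of all genes were. An unadjusted p under 0.05 was found for 2126 of all 14193 genes tested and for 8 of the 83. Among these 8 were 4 accessory subunits of complex I, with limma adjusted p = 0.267 to 0.289. Ndufa2 (log2 fold change 0.74), Ndufa5 (0.87) and Ndufa7 (0.60) lay higher in every metaplastic carcinosarcoma, and Ndufa12 (-0.61) lay lower in every one. The share of all genes without such overlap was not counted. The nuclear median was 0.06, against -0.10 over all genes.

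Complex II, succinate dehydrogenase, oxidizes succinate in the citric acid cycle, and its flavoprotein subunit Sdha (chromosome 13, 74322254 to 74350280, minus strand, GRCm38) differed from its partners. Sdha had 68.3, 81.3 and 66.5 TPM in metaplastic carcinosarcomas 64, 567 and 897, and 126, 82.4 and 75.5 TPM in carcinomas 89, 273_5 and 3956. The glands had 163 TPM (133), 150 TPM (392), 131 TPM (417_3) and 114 TPM (517_3). Every metaplastic carcinosarcoma thus lay below every gland, while carcinoma 89 lay above gland 517_3. The log2 fold change was -0.76 (SE 0.22, limma adjusted p = 0.0336) for all Trim24COE tumors and -0.94 (SE 0.22, limma adjusted p = 0.0210) for metaplastic carcinosarcomas. It was -0.58 (SE 0.27, limma adjusted p = 0.260) for carcinomas. The call for all Trim24COE tumors was lost when any of 64, 567, 897, 3956, 133, 392 or 417_3 was left out.

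The iron-sulfur subunit Sdhb and the membrane anchors Sdhc and Sdhd did not pass the test. Sdhb had 221, 213 and 198 TPM in the metaplastic carcinosarcomas, 199, 126 and 183 TPM in the carcinomas, and 286, 218, 81.4 and 95.9 TPM in glands 133, 392, 417_3 and 517_3. The ratio of Sdhb to Sdha TPM was 2.61 to 3.24 in metaplastic carcinosarcomas, 1.52 to 2.42 in carcinomas, and 1.75, 1.45, 0.619 and 0.839 in the same glands, so the metaplastic carcinosarcomas were above every gland. Non-TRIM24 tumors, all from batch 2, had ratios of 2.06 to 2.30. In the repeats from that batch the ratio was 2.09 for gland 133 (first library 1.75) and 3.23 for carcinoma 3956 (first library 2.42). Sdhc had a log2 fold change of -0.03 (SE 0.22) and Sdhd of 0.31 (SE 0.25) in Trim24COE tumors.

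In complex III, which passes electrons from ubiquinol to cytochrome c, the core subunit Uqcrc2 (chromosome 7, 120635176 to 120659524, plus strand) was the called gene, in metaplastic carcinosarcomas. It had 72.7, 68.8 and 75.5 TPM there, 133, 129 and 77.2 TPM in carcinomas 89, 273_5 and 3956, and 159, 115, 126 and 123 TPM in glands 133, 392, 417_3 and 517_3. Carcinoma 3956 was close to the metaplastic carcinosarcomas and the other carcinomas were within the range of the glands. The log2 fold change in metaplastic carcinosarcomas was -0.84 (SE 0.21, limma adjusted p = 0.0260); in carcinomas it was -0.24 (SE 0.27, limma adjusted p = 0.680), and directly between both tumor classes -0.60 (SE 0.27, limma adjusted p = 0.36). Its call was lost without 64, 567, 897 or 517_3. The other core subunit, Uqcrc1, had -0.24 (SE 0.36) and the Rieske iron-sulfur subunit Uqcrfs1 -0.41 (SE 0.32) in metaplastic carcinosarcomas.

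In complex IV, cytochrome c oxidase, 0 of 16 tested subunits were called by limma with all mice and without the covariate. With the adipocyte covariate Cox8b (log2 fold change 5.37, limma adjusted p = 0.00455) and Cox7a1 (2.74, limma adjusted p = 0.0408) were called in Trim24COE tumors, and Cox5a, Cox6c, Cox6a2, Cox7a2 and Cox8b in metaplastic carcinosarcomas. The spread was largest among the tissue isoforms. Cox8b, an isoform of heart, muscle and brown fat, ranged from 0.63 to 1178 TPM over the 13 first libraries, with an SD of 3.29 on the log2 scale; the median SD was 0.504 over 80 nuclear members and 0.601 over 10821 genes. It had 1178 TPM in gland 133, 474 TPM in gland 392, 447 TPM in carcinoma 89, 274 TPM in FVB002, 162 TPM in carcinoma 273_5 and 109 TPM in FVB001, and at most 30.2 TPM in the others. Cox7a1, the isoform of the same tissues, was highest in gland 133 (331 TPM) and carcinoma 89 (166 TPM), and 6.89 to 16.7 TPM in 7 libraries. The ubiquitous Cox8a and Cox7a2 had narrower ranges, 402 to 2558 TPM and 146 to 669 TPM.

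Cox8b made up 46.7% of the Cox8a and Cox8b sum in gland 133, 33.4% in carcinoma 89, 27.0% in gland 392, 13.96% in FVB002 and 13.6% in carcinoma 273_5, and at most 4.09% elsewhere. Cox7a1 made up 46.6% of the Cox7a1 and Cox7a2 sum in gland 133 and 43.0% in carcinoma 89. The 6 brown adipocyte markers summed to 310 TPM in gland 133, 267 TPM in carcinoma 89, 123 TPM in 273_5, 79.8 TPM in FVB002 and 43.9 TPM in gland 392, and to at most 16.7 TPM in the rest. Ucp1, the uncoupling protein of brown fat, had 139 TPM in gland 133, 135 TPM in carcinoma 89, 73.2 TPM in 273_5 and 36.2 TPM in FVB002, and 0.04 to 7.58 TPM elsewhere. FVB001, with 109 TPM of Cox8b and 55.7 TPM of Cox7a1, had 11.8 TPM of these markers, and gland 392 had 7.58 TPM of Ucp1, so the order of both isoforms matched that of the markers only in part; the part of such cells in the isoform levels was not tested.

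Cox6a2, the muscle isoform of Cox6a1, followed another order. It had 32.1 TPM in gland 392, 21.5 TPM in metaplastic carcinosarcoma 567 and 14.7 TPM in gland 133, and at most 5.91 TPM in the others. The 13 skeletal muscle markers summed to 3053 TPM in gland 392, 1317 TPM in 567, 558 TPM in gland 133 and 447 TPM in carcinoma 89, so the top libraries were the same; the part of muscle was not tested. Cox6b2, known as the testis isoform of Cox6b1, had 10.7, 12.1, 11.2 and 11.9 TPM in the glands and 1.51 to 10.2 TPM in Trim24COE tumors, with every tumor below every gland (log2 fold change -1.07, SE 0.45, limma adjusted p = 0.120). The share of all genes with every tumor below every gland was not counted. Cox6b2 was 64.6 TPM in FVB001.

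**Figure D3:**
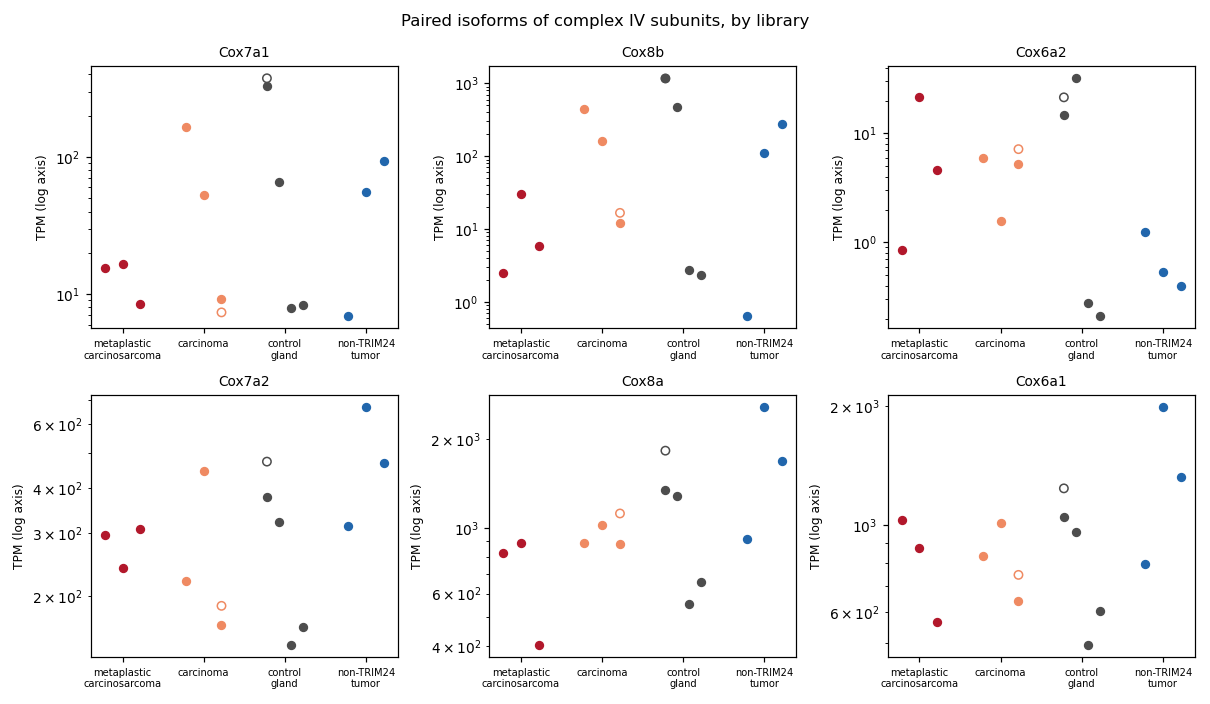
TPM (log axes) of tissue isoforms of complex IV subunits (top: Cox7a1, Cox8b, Cox6a2) and of their ubiquitous partners (bottom: Cox7a2, Cox8a, Cox6a1) by group. Filled points are first libraries and open points repeats; Cox8b spans 0.63 to 1178 TPM and Cox8a 402 to 2558 TPM.

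Ndufa4, an associated subunit of complex IV that was first assigned to complex I, was singular in tumor 64. It had 3918 TPM there and 230 to 974 TPM in the other 5 Trim24COE tumors; the next highest first library was gland 133 with 1223 TPM, a ratio of 3.20. Ndufa4 lies on chromosome 6 (11900292 to 11907497, minus strand), and Phf14 starts 312 bases beyond it. Phf14 had 140 TPM in tumor 64 and at most 33.5 TPM in any other first library. Of the 19 other genes with at least 5 TPM in a first library within 5000000 bases, 16 were highest in tumor 64, whereas 9.25% of 14393 genes were. Among them was Sdhaf3, an assembly factor of complex II, with 5.99 TPM against at most 2.92 TPM elsewhere. These genes were examined after the level of Ndufa4 had been seen, and no DNA data were analysed here. The relative Ndufa4l2, known as a hypoxia-induced gene, had 5.91 to 29.0 TPM in Trim24COE tumors and 6.83 to 31.8 TPM in glands.

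In complex V, ATP synthase, the called gene was Atp5g1 (chromosome 11, 96068852 to 96075670, minus strand), which with Atp5g2 and Atp5g3 encodes the c subunit of the membrane rotor; the mature peptide of these genes is the same and their import sequences differ. Atp5g1 had 455, 344 and 291 TPM in metaplastic carcinosarcomas 64, 567 and 897 and 265, 396 and 265 TPM in carcinomas 89, 273_5 and 3956. The glands had 136 TPM (133), 169 TPM (392), 191 TPM (417_3) and 231 TPM (517_3). Every Trim24COE tumor was above every gland, and Atp5g1 was the member that was lower in both 133 and 392 than in both other glands. The log2 fold change was 0.88 (SE 0.23, 95% confidence interval 0.38 to 1.38, limma adjusted p = 0.0235), or 1.84-fold, for all Trim24COE tumors and 1.00 (SE 0.27, limma adjusted p = 0.0340) for metaplastic carcinosarcomas. In carcinomas it was 0.76 (SE 0.28, limma adjusted p = 0.169). For all Trim24COE tumors the value stayed between 0.55 and 1.11 over all 18 settings, and the call held in 13. That call was lost without gland 133, without gland 392, without both, with the adipocyte covariate and without a filter on low values. For metaplastic carcinosarcomas the call held in 5 of 15 settings. It was lost without any of 64, 567, 897, 133, 392 or 417_3, and under quantile normalization, among others.

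The composition of the c subunit pool differed as well. Atp5g1 made up 24.8% to 32.9% of the summed c subunit TPM in Trim24COE tumors, 13.6% and 14.2% in glands 133 and 392, and 25.8% and 26.5% in glands 417_3 and 517_3, so its share overlapped between tumors and the latter glands. Non-TRIM24 tumors had 28.0% (219), 18.5% (FVB001) and 21.8% (FVB002). Atp5g3 was the most abundant at 47.5% to 80.6% in every first library, and its log2 fold change in Trim24COE tumors was -0.08 (SE 0.24). Atp5g2 had 323 TPM in metaplastic carcinosarcoma 897, 27.6% of the pool, and 74.0 to 119 TPM in the other Trim24COE tumors.

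Sequences at the starts of the c subunit genes and of Sdhb (RefSeq, GRCm38.p6) are shown because Atp5g1 and Atp5g3 diverged although they encode the same mature peptide. Capitals mark matches to motifs of NRF1 (GCGCATGC) or ERRA (TCAAGGTCA), regulators known to act on respiratory chain genes, on either strand; overlapping matches are marked together. The Atp5g1 stretch, chr11:96075671-96075881 on the minus strand, holds none of the letters searched. The Atp5g3 stretch, chr2:73911327-73911576 on the minus strand, holds an ERRA match. Sites of 30 bases are given for Atp5g2 (chr15:102671070-102671099, minus strand) and Sdhb (chr4:140961206-140961235, plus strand), where NRF1 matches lie; both sites are before the RefSeq start used here but inside an exon annotated by GENCODE, and thus within the annotated gene.
Atp5g1: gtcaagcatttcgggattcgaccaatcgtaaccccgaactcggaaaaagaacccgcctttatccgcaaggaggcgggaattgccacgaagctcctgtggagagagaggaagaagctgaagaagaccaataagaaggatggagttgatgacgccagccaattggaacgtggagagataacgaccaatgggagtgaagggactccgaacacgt
Atp5g3: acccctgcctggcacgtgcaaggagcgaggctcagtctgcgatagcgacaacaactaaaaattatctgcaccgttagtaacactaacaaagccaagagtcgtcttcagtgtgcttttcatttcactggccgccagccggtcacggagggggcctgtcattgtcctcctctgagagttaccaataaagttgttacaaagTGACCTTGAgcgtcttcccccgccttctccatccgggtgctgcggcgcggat
Atp5g2: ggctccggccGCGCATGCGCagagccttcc
Sdhb: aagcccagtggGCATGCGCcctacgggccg

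Over the 250 bases before the start, the NRF1 letters stood in 8 of 69 nuclear members with a RefSeq entry (11.6%) and in 2.56% of 27025 genes, the letters CCGGAAGT of GABPA in 3 members (4.35%) and 3.23% of genes, and the ERRA letters in 1 member (1.45%) and 0.422% of genes. Members with the NRF1 letters were Ndufa6, Ndufa8, Ndufa11, Sdhb, Cox6a1, Atp5g2, Atp5k and Atp5l. A match is a description of these letters and not of binding.

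Some subunits of the catalytic head and stalk of ATP synthase varied little. Atp5a1, the alpha subunit, had the smallest SD of the 80 nuclear members with at least 1 TPM in every first library, 0.218 on the log2 scale, and Atp5c1, the gamma subunit, had 0.293. Atp5b, the catalytic beta subunit, had an SD of 0.532, above the median of 0.504 over these members. It had 984, 951 and 932 TPM in the metaplastic carcinosarcomas, 1413, 1385 and 1370 TPM in the carcinomas, and 1983, 1523, 1188 and 1221 TPM in glands 133, 392, 417_3 and 517_3. Both tumor classes were tight and did not overlap, and every metaplastic carcinosarcoma was below every gland. The shares of all genes that lay apart in these ways were not counted. The log2 fold change was -0.54 (SE 0.21, limma adjusted p = 0.305) between the tumor classes and -0.60 (SE 0.27, limma adjusted p = 0.152) against the glands, so neither passed the threshold over all genes.

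Atp5s (chromosome 12, 69724950 to 69744660, plus strand), which carries the name of an ATP synthase factor and was later renamed Dmac2l, was low throughout. It had 4.13, 3.44 and 6.02 TPM in the metaplastic carcinosarcomas, 8.05, 10.3 and 8.07 TPM in carcinomas 89, 273_5 and 3956, and 10.9, 14.7, 13.1 and 9.70 TPM in the glands. Every metaplastic carcinosarcoma lay below every other batch 1 library. The log2 fold change in metaplastic carcinosarcomas was -1.26 (SE 0.29, limma adjusted p = 0.0192) against the glands and -0.85 (SE 0.30, limma adjusted p = 0.267) against carcinomas. All calls in metaplastic carcinosarcomas were lost when 64 or 567 was left out, and without 897 the call of Atp5s alone was left.

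**Figure D4:**
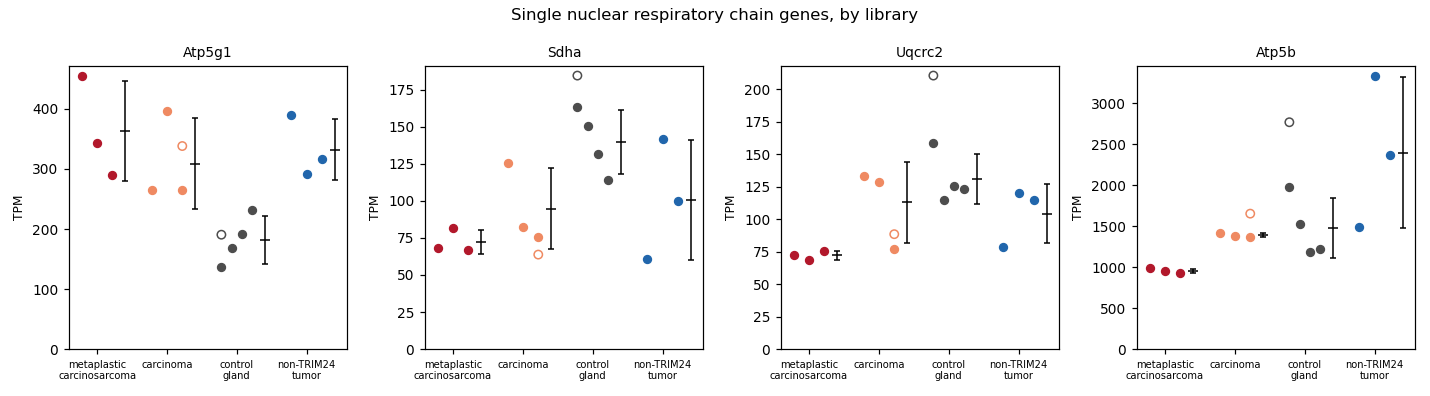
TPM (linear axes from 0) of Atp5g1, Sdha, Uqcrc2 and Atp5b by group, with filled points for first libraries, open points for repeats and bars for the mean ± SD of first libraries. Atp5g1 is higher in every Trim24COE tumor than in every gland, and Sdha, Uqcrc2 and Atp5b are lower in every metaplastic carcinosarcoma than in every gland.

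All 13 mitochondrial mRNAs lay below 0 in metaplastic carcinosarcomas against the glands, yet none passed the threshold. Their median log2 fold change was -0.94, where the median of all genes was -0.12. An unadjusted p under 0.05 was found for 5745 of all 15287 genes tested and for 2 of the 13 mRNAs. These were mt-Nd4, with 724, 1826 and 1854 TPM in tumors 64, 567 and 897 against 11265, 3267, 3400 and 2919 TPM in glands 133, 392, 417_3 and 517_3 (log2 fold change -1.70, SE 0.57, limma adjusted p = 0.0659), and mt-Nd5 (-1.44, SE 0.50, limma adjusted p = 0.0693). Both encode membrane subunits of complex I that pump protons, and neither group overlapped the other. How many of all genes lay apart in this way was not counted. mt-Cytb, the cytochrome b of complex III, had -1.26 (SE 0.56, limma adjusted p = 0.139), also without overlap. In complex IV the values were -1.01 (SE 0.62) for mt-Co1, -0.43 (SE 0.68) for mt-Co2 and -0.76 (SE 0.66) for mt-Co3, and in complex V -0.59 (SE 0.61) for mt-Atp6 and -1.34 (SE 0.73) for mt-Atp8. The remaining complex I genes had -0.36 (mt-Nd1), -0.94 (mt-Nd2), -0.78 (mt-Nd3), -1.13 (mt-Nd4l) and -0.50 (mt-Nd6).

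Against carcinomas the metaplastic carcinosarcomas again had all 13 mitochondrial members below 0, with a median of -1.11 beside 0.06 for the nuclear members and -0.10 for all genes. By limma 0 of 13 were called. An unadjusted p under 0.05 was found for 2126 of all 14193 genes tested and for 4 of the 13 mitochondrial members. These were mt-Nd5 (274, 576 and 725 TPM against 1557, 1235 and 1049 TPM, log2 fold change -1.38), mt-Nd4 (-1.40), mt-Nd2 (-1.15) and mt-Cytb (-1.11), with limma adjusted p = 0.215 to 0.271 and no overlap as deposited. With its chromosome 1 copy added, mt-Nd4 had 2665 TPM in 897 and 2598 TPM in carcinoma 3956, so the classes then overlapped. The share of all genes without overlap between these classes was not counted. mt-Nd6, the gene on the other strand of the mitochondrial genome, was at -0.05 (SE 0.27), with 2024, 2407 and 1591 TPM against 2380, 1858 and 1965 TPM. Without tumor 64 the median moved toward 0, from -1.11 to -0.57, and under quantile normalization 12 of 13 were below 0. The metaplastic carcinosarcomas had 358 to 1418 TPM of epithelial markers and 4507 to 6918 TPM of macrophage markers, against 5915 to 7835 and 2131 to 6857 TPM in carcinomas. Fibroblast markers summed to 2053 to 7929 TPM in metaplastic carcinosarcomas and 287 to 2888 TPM in carcinomas, with 6 of 6 above 0 (median 1.65) beside 7 of 7 macrophage markers (median 0.75), and 0 of either list were called by limma, 1 and 0 having an unadjusted p under 0.05; the part of these cells was not tested.

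Levels of single mitochondrial genes also depended on nuclear copies. On chromosome 1, 7 annotated genes share 25-base words with a mitochondrial gene: Gm28661 holds 99.5% of those of mt-Co2, Gm28437 99.9% of mt-Co3, Gm10925 99.5% of mt-Atp6, Gm28438 98.1% of mt-Nd3, Gm10222 98.9% of mt-Nd4l, Gm28439 62.9% of mt-Nd4 and Gm29216 29.9% of mt-Co1. Reads from such a pair cannot be told apart by these words. mt-Co2 had 8958 TPM in the first library of carcinoma 3956 and 1197 TPM in its repeat, and 32928 and 4446 TPM in those of gland 133, while its copy Gm28661 went the other way, from 4978 to 7453 TPM and from 4559 to 26067 TPM. The log2 differences of mt-Co2, -2.90 and -2.89, shrank to -0.69 and -0.30 once the length-weighted copy was added.

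Over all 13 genes the repeat minus first median was -0.88 in carcinoma 3956 (range -2.90 to 0.22) and -0.56 in gland 133 (-2.89 to 0.34), against 0.12 and 0.25 for nuclear members. With the copies the medians were -0.88 and -0.70, with narrower ranges of -1.27 to -0.36 and -1.41 to 0.02. The repeats thus held less mitochondrial mRNA than the first libraries of the same tissue. All first libraries of Trim24COE tumors and glands are from batch 1, so a shift between the batches does not enter the comparisons among them. No tissue has a repeat within batch 1, so variation between libraries of a tissue there is unknown. Pairs in the nuclear set share words too: all words of Ndufb4c are also in Ndufb4, and the means were 294 and 52.5 TPM, so levels of that pair are uncertain. mt-Atp6 with mt-Atp8 and mt-Nd4 with mt-Nd4l overlap on the mitochondrial genome.

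**Figure D5:**
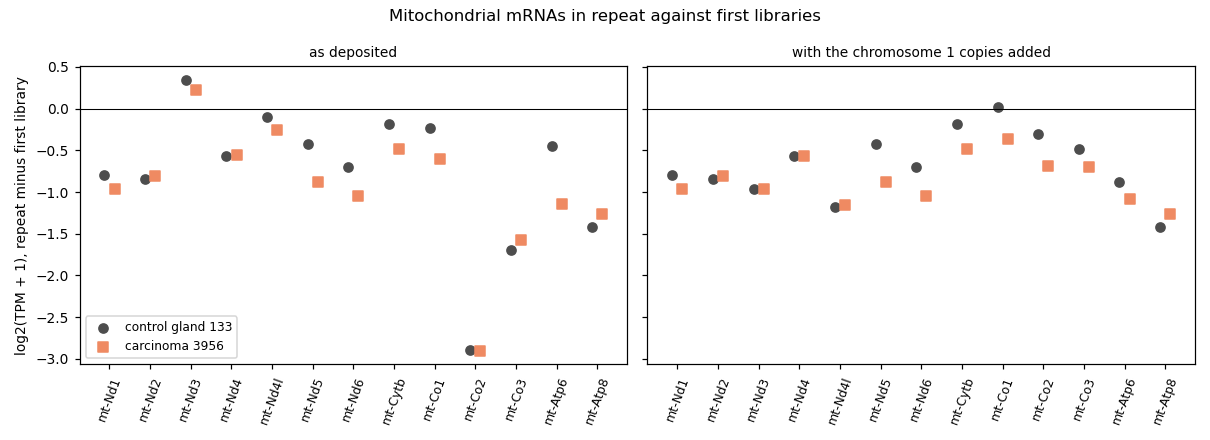
Difference in log2(TPM + 1) between the repeat (batch 2) and first (batch 1) library of gland 133 and carcinoma 3956 for each mitochondrial mRNA, as deposited (left) and with the nuclear copies on chromosome 1 added (right). The points of mt-Co2 move from -2.89 and -2.90 to -0.30 and -0.69.

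The non-TRIM24 tumors were compared in a fit of all 15 libraries with a batch term, which rests on the repeats of 133 and 3956. Against control glands 0 of 83 nuclear and 0 of 13 mitochondrial members were called by limma, where 0.709% of all genes were. An unadjusted p under 0.05 was found for 4 nuclear members (Cox7a2l, Uqcrc2, Ndufa4l2 and Atp5s), no mitochondrial member and 3235 of all 16775 genes tested. The nuclear median was 0.25 with 64 of 83 above 0, and the mitochondrial median 0.27, beside -0.27 over all genes. These directions depended on the libraries and the fit: without FVB001 and FVB002, left out after seeing the data, the medians were -0.26 and -0.14, with 63 of 83 nuclear members below 0, and the mitochondrial median was -0.50 without the batch term and -0.42 without the link between libraries of a mouse. Between carcinomas and non-TRIM24 tumors 0 of 83 and 0 of 13 were called, where 0.0298% of all genes were. An unadjusted p under 0.05 was found for 4 nuclear members (Ndufb9, Ndufa5, Ndufa7 and Atp5s), no mitochondrial member and 2953 of all 16775 genes tested. The medians were -0.30 and -0.45, beside 0.27 over all genes. They turned to 0.17 and 0.08 without FVB001 and FVB002, and the mitochondrial one to 0.89 without the batch term and 0.13 without carcinoma 3956. Of nuclear members with at least 5 TPM in a first library, FVB001 had the highest value of 47 and gland 133 of 17, and both had high adipocyte markers. Gland 392, with 50197 TPM of these markers against 43244 TPM in gland 133, was highest for 6. FVB002, with 36346 TPM of them, was highest for none. The shares of all genes highest in these libraries were not counted. Atp5g1 had 389 TPM in 219, 291 TPM in FVB001 and 316 TPM in FVB002, above every first library of the glands (log2 fold change 0.47, SE 0.26, limma adjusted p = 0.333).

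Genes around the chain were followed as lists. Among 43 assembly factors, Sdhaf2, which attaches flavin to Sdha, rose in Trim24COE tumors (log2 fold change 0.81, limma adjusted p = 0.0391), while the complex I factors Acad9 (-1.23, limma adjusted p = 0.0302) and Nubpl (-0.89, limma adjusted p = 0.0270) fell. These were 3 of 43 or 6.98%, where 17.1% of all genes were called; 26 of 43 lay below 0, with a median of -0.07 beside -0.04 over all genes. In metaplastic carcinosarcomas Uqcc2, a complex III factor, rose (1.82, limma adjusted p = 0.00858), and Acad9 (-1.34, limma adjusted p = 0.0469) and Nubpl (-1.08, limma adjusted p = 0.0244) fell, again 6.98%, where 23% of all genes were called. Of 13 citric acid cycle enzymes Suclg2, a subunit of succinate-CoA ligase, fell in Trim24COE tumors (-1.24, limma adjusted p = 0.0168) and in metaplastic carcinosarcomas (-1.55, limma adjusted p = 0.0130), which is 7.69% in each against the same 17.1% and 23%. In each 12 of 13 lay below 0, with medians of -0.34 and -0.53 beside -0.04 and -0.12 over all genes.

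Among 17 genes of mitochondrial biogenesis and transcription (such as Ppargc1a, Tfam and Polrmt), 0 were called by limma in any comparison. An unadjusted p under 0.05 was found for 2 in all Trim24COE tumors against glands, 1 in metaplastic carcinosarcomas against glands, 0 in carcinomas against glands and 0 between the tumor classes. Against control glands the non-TRIM24 tumors had 15 of 17 below 0 with a median of -0.58, beside -0.27 over all genes. Of the 17, 7 had an unadjusted p under 0.05, as had 3235 of all 16775 genes tested. Between carcinomas and non-TRIM24 tumors 8 of the 17 had one, as had 2953 of all 16775 genes tested. The median for carcinomas over non-TRIM24 tumors was 0.52, beside 0.27 over all genes. Both comparisons rest on the batch term and thus on the repeat libraries. How this list moves without that term is not reported here. The 5 subunits that the symbol patterns miss (Cox4i1, Cox4i2, Cyc1, Cycs and Ndufab1) had 0 called and 0 at an unadjusted p under 0.05 in every comparison, and their medians lay between -0.50 and 0.31.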

How the data were processed

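Members and gene lists were chosen with earlier results of these data known. The deposited tables hold TPM, which per the paper the authors made by aligning reads to GRCm38 with the GENCODE annotation using STAR and estimating expression with RSEM. The labels also name TopHat and Cufflinks, with no role. Labels and paper name different RNA and library kits, so strandedness, which bears on mt-Nd6 against mt-Nd5, is unclear. TPM compare genes per length and sum to a fixed total, so depth is unknown and a rise of abundant mitochondrial RNA lowers the share of all else; a rescaling without it was an alternative.

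Groups came from the labels. Models were fitted to log2(TPM + 1) with limma 3.58.1 in R 4.3.3 (eBayes with trend, two-sided) over genes that reached 1 TPM in a number of libraries equal to the mice of the smaller group, with Benjamini-Hochberg adjustment over all genes and a threshold of 0.05. Comparisons within batch 1 used first libraries of the groups compared. Those with non-TRIM24 tumors used all 15 libraries, a batch term and mouse as a block (duplicateCorrelation), which could not be estimated without mouse 133 or 3956, where the value from all mice was used. The fits were tested on simulated data.

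Named are all mitochondrial mRNAs, core subunits (some values are not reported here), isoforms, and up to 5 nuclear members a direction past the threshold without overlap; Ndufs5, Ndufa2, Ndufa5, Ndufa7, Ndufa12, Ndufb9, Cox6c2, Phf14 and members named in other fits were chosen after their values were seen. Positions are from GENCODE M21 on GRCm38. Shared sequence was counted as 25-base words between annotated transcripts, and motifs as exact letters on both strands of RefSeq promoters. Python 3.11.15 made sums and figures.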

Additional observations from a re-analysis of the deposited data

Results flagged for a closer look

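Of 120 gene or complex levels checked within the 4 control glands or the 6 Trim24COE tumors, 15 had a library whose gap to the nearest other exceeded Dixon's 95% critical value; chance marks about 1 in 20. In control gland 133, mt-Nd2 (7555 TPM, others 1431 to 2334), mt-Nd4 (11265 TPM, others 2919 to 3400), mt-Cytb (17742 TPM, others 4504 to 6414), mt-Co1 (26572 TPM, others 8284 to 10825) and mt-Atp8 (34067 TPM, others 9049 to 12381) stood above the other glands. The sums of mitochondrial complex III (17742 TPM, the level of mt-Cytb) and complex V (42772 TPM, others 12095 to 13796) in that gland did so too.

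In tumor 64, Ndufa4 had 3918 TPM (others 230 to 974). In carcinoma 89, Sdha had 126 TPM (others 66.5 to 82.4), Cox7a1 166 TPM (others 8.41 to 53.1) and Cox8b 447 TPM (others 2.50 to 162). In carcinoma 273_5, Ndufs8 had 130 TPM (others 95.5 to 104). In metaplastic carcinosarcoma 567, Cox6a2 had 21.5 TPM (others 0.85 to 5.91). In metaplastic carcinosarcoma 897, Atp5g2 had 323 TPM (others 74.0 to 119), and Cox8a was low at 402 TPM (others 821 to 1025).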

How the results depend on the processing

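The members called against the glands with all mice (Sdha, Atp5g1, Uqcrc2 and Atp5s) kept their direction in those comparisons under the alternatives run, but others turned and counts moved. In Trim24COE tumors Ndufb8 was called higher without glands 133 and 392 (1.06) and lower without 417_3 and 517_3 (-0.89). In metaplastic carcinosarcomas Cox8b (4.50 and -6.37), Ndufa5, Ndufb3, Ndufb4, Ndufb8 and Ndufv3 were called higher with the covariate and lower without 417_3 and 517_3. The nuclear members past the threshold in Trim24COE tumors (2) became 0 without a filter on low values, 8 without glands 133 and 392 and 12 without 417_3 and 517_3, and 0 to 3 with each mouse left out in turn: 0 without gland 133 or gland 392, and 1 (Atp5g1) without 64, 567, 897, 3956 or 417_3. In metaplastic carcinosarcomas (4) they became 2 without the filter, 28 with the adipocyte covariate, 28 without 133 and 392 and 18 without 417_3 and 517_3, and 0 to 3 with each mouse left out: 0 without 64 or 567, 1 without 897, and 3 without 133, 392, 417_3 or 517_3. In carcinomas (0) they became 1 with the covariate, 2 without 133 and 392 and 5 without 417_3 and 517_3. Mitochondrial members past the threshold went from 0 to 3 without 417_3 and 517_3, both in all Trim24COE tumors and in metaplastic carcinosarcomas. Without the batch term the non-TRIM24 tumors against glands had 4 nuclear calls (Ndufa11, Atp5g1 and Atp5g2 higher, Atp5s lower) and 1 mitochondrial call (mt-Co2 lower, -2.31), and carcinomas against non-TRIM24 tumors 1 mitochondrial call (mt-Co2 higher, 2.21); mt-Co2 differed by -2.90 and -2.89 between repeats and first libraries. Otherwise the cause was not tested. Quantile normalization moved the nuclear medians to -0.25, -0.31 and -0.22 against the glands in all Trim24COE tumors, metaplastic carcinosarcomas and carcinomas. No paired analysis was possible because the replicates are separate mice that share no number across groups. TPM give no counting error, and 3 or 4 mice a group limit precision.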
